A study of Mus musculus with 46 samples.

Results

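The genes described here are 9 genes of the thin filament and of the muscle's response to load: the actins *Acta1*, *Actc1* and *Acta2*, the ankyrin repeat genes *Ankrd1* and *Ankrd2*, *Csrp3*, the Xin repeat genes *Xirp1* and *Xirp2*, and *Nrap*. They were chosen by symbol, through the Ensembl identifier of each row, and all 9 were found in both count tables, among 17514 genes for gastrocnemius and 16987 for spinalis. The list was drawn up with earlier results of these same samples in view, and which values guided the choice is not recorded. The values, counts and q-values below therefore describe the genes and are no independent evidence about them as a group. The name "sarcomeric actins" covers *Acta1* and *Actc1* only, since *Acta2* is the actin of smooth muscle.

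The study asked whether the *Actn3* genotype alters how skeletal muscle responds to androgens. In the androgen deprivation experiment, C57BL6 male mice, either WT or *Actn3* KO, were operated on when 8 to 10 weeks old, by orchidectomy (ORX) or as sham controls. Gastrocnemius RNA was taken 12 weeks later, from 6 WT-sham and 6 KO-sham mice and from 6 WT-ORX and 5 KO-ORX mice. In the treatment experiment, C57BL6 female WT and KO mice received a silastic implant that was empty or held 10 mg of dihydrotestosterone (DHT) when 4 to 5 weeks old. Spinalis RNA was taken after 6 weeks, from 5 WT-empty and 5 KO-empty mice and from 6 WT-DHT and 6 KO-DHT mice. KO mice lack α-actinin-3, the Z-disc protein of fast fibers, in every tissue that makes it, so the genotype is not limited to the muscles sampled. Muscle, sex, age and count table differ together between the experiments and cannot be told apart. The data are reads counted per gene, given here as CPM, the counts of a gene scaled to the size of its library after TMM normalization, and each experiment was normalized separately.

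Adult skeletal muscle builds its thin filaments almost entirely from skeletal α-actin, the product of *Acta1*. Cardiac α-actin, the product of *Actc1*, is the main sarcomeric actin of the heart and of developing skeletal muscle, and its amount falls as skeletal muscle matures. *Ankrd1*, *Ankrd2* and *Csrp3* encode proteins of the titin-based stretch-sensing complexes and of the Z-disc, *Xirp1* and *Xirp2* encode actin-binding proteins of damaged or remodelling myofibrils and of the myotendinous junction, and *Nrap* encodes a scaffold of myofibril assembly. Serum response factor (SRF), which binds the CArG box, is the classic activator of the muscle actin genes.

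The 100 bases before the start sites of *Acta1* and *Actc1* are shown because these genes gave the largest differences among the 3 actins and because each stretch holds a CArG box. They were taken from the RefSeq promoter table of build GRCm38.p6, at chr8:123894776-123894875 (minus strand) for *Acta1* and chr2:114052876-114052975 (minus strand) for *Actc1*, and are written 5′ to 3′ with the CArG box in capitals.
*Acta1* upstream: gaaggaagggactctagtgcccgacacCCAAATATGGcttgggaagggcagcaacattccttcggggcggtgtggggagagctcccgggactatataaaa
*Actc1* upstream: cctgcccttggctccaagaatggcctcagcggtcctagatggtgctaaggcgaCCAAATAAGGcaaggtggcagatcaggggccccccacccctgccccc
The box began 73 bases before the start site in *Acta1* and 47 bases before it in *Actc1*. The box was searched in its strict form CCWWWWWWGG, where W is A or T. On either strand, 1.63% of the 32851 promoters of 300 bases in the table held a CArG box of this form. Of the other members, *Acta2*, *Ankrd1*, *Ankrd2*, *Csrp3* (with 2 entries), *Xirp2* and *Nrap* had promoter entries, and none of these windows held a match to the strict form. Sequences 1 base off it were not counted, among them CCCTATATGG and CCTTGTTTGG in the *Acta2* window and CCCTATATGG in that of *Actc1*. The search therefore does not show that *Acta2* lacks such boxes. The full androgen response element, searched as the arms AGAACA and TGTTCT separated by any 3 bases, matched no member promoter and 0.00913% of all promoters. The arm AGAACA alone was found in 2 places for *Acta2* and in 1 for *Csrp3*, against 19% of all promoters with at least 1. The MCAT element CATTCC, the site of TEAD factors, had at least 1 match in *Acta1*, *Acta2* and *Ankrd1* and in 14.7% of all promoters. A match of letters is a description of these windows and not evidence of binding.

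The genes lie on 5 chromosomes in GENCODE M21 (GRCm38), whereas the submitters' notes name GRCm39 for the alignment. *Actc1* and *Xirp2* lie on chromosome 2, *Csrp3* on 7, *Acta1* on 8, *Xirp1* on 9, and *Acta2*, *Ankrd1*, *Ankrd2* and *Nrap* on 19, the chromosome that also carries the targeted *Actn3* gene. No stretch of 100 bases in the transcripts of any member was shared with the transcripts of another gene. Exons of *Nrap* overlap those of *Habp2* and *Gm17197* on the opposite strand over 376 bases (6.83% of its exon length), and those of *Xirp2* overlap *Gm13601* over 168 bases (1.4%). The libraries were stranded, but whether the counting used the strand is not given in the sources used here.

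The libraries held 26.7 to 55.4 M counts (M, mega). Every KO-sham library (29.5 to 37.5 M) was smaller than every WT-sham library (43.4 to 50.3 M), and WT-DHT replicate 5 was the smallest of its group with 34.8 M. *Actn3* itself had 5980 to 10400 CPM in the WT libraries and 34.3 to 83.2 CPM in the KO libraries, so the genotype labels hold for all of them. Below, q is the Benjamini-Hochberg adjusted p, over all genes of a table, from the quasi-likelihood F test of edgeR. A gene was called at q of at most 0.01 for treatment or genotype and at most 0.05 for an interaction.

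Per kilobase of exon, *Acta1* was far above the other members, with group means of 8070 to 20100 CPM per kb. *Xirp2* followed with 265 to 466 and *Nrap* with 252 to 384 CPM per kb, ranges that overlap each other. *Actc1* had the widest range, from 17.4 CPM per kb in KO-sham to 467 in WT-empty, a 26.8-fold span between group means. *Ankrd2* had 52.5 to 72.4, *Csrp3* 24.6 to 40.4, *Acta2* 17.1 to 20 and *Xirp1* 11 to 29.5 CPM per kb. *Ankrd1* was the lowest of the 9, with 0.973 to 4.99 CPM per kb. These levels stand side by side across separately normalized tables, so they were not tested between muscles.

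*Actc1* was the member that moved with androgens in both experiments, and it moved in opposite directions. It rose after ORX in gastrocnemius of both genotypes, fell with DHT in WT spinalis, and was lower in KO than in WT muscle in all of the comparisons of genotype except under DHT. Of the 8 comparisons between pairs of groups it was called in 6.

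In gastrocnemius, *Actc1* had 40.6, 47.6 and 72.3 CPM (lowest, median and highest) in the 6 WT-sham mice and 182, 294 and 406 CPM in the 6 WT-ORX mice. The groups did not overlap, and the rise was 5.85-fold (log2 fold change 2.55, SE 0.19, q = 4.3e-10). In KO mice it had 18.1, 28.4 and 38 CPM with sham surgery. The 5 KO-ORX mice had 53.9, 99.6, 60.1, 65.9 and 78.1 CPM. Every KO-ORX mouse was above every KO-sham mouse, a 2.54-fold rise (log2 fold change 1.34, SE 0.2, q = 4.3e-05). *Actc1* was the only member called with ORX in either genotype, 1 of 9 in each, where 5.45% of all genes were called in WT and 5.57% in KO.

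The genotypes also differed in *Actc1* within each operation. KO-sham mice all lay below WT-sham mice, with a level 1.81-fold lower (log2 fold change -0.85, SE 0.19, q = 0.0033), and KO-ORX mice all lay below WT-ORX mice, 4.16-fold lower (log2 fold change -2.06, SE 0.2, q = 1.2e-07). Without WT-sham replicate 2 the difference in sham mice was no longer called (q = 0.012). The ORX response was 2.3-fold smaller in KO than in WT (interaction -1.2 on the log2 scale, 95% interval -1.76 to -0.65), with q = 0.081 over all genes, so this difference was not called. DESeq2 called it (q = 0.019), the q-values of the alternatives ran from 0.019 to 0.12, and edgeR without WT-ORX replicate 2 gave q = 0.034. In all, 4 of the 17514 genes (0.0228%) were called for the interaction with ORX by edgeR, and 0 of the 9 members. Only *Actc1* had an unadjusted p under 0.05, and DESeq2 called 1 member and limma-voom 0.

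**Figure D1:**
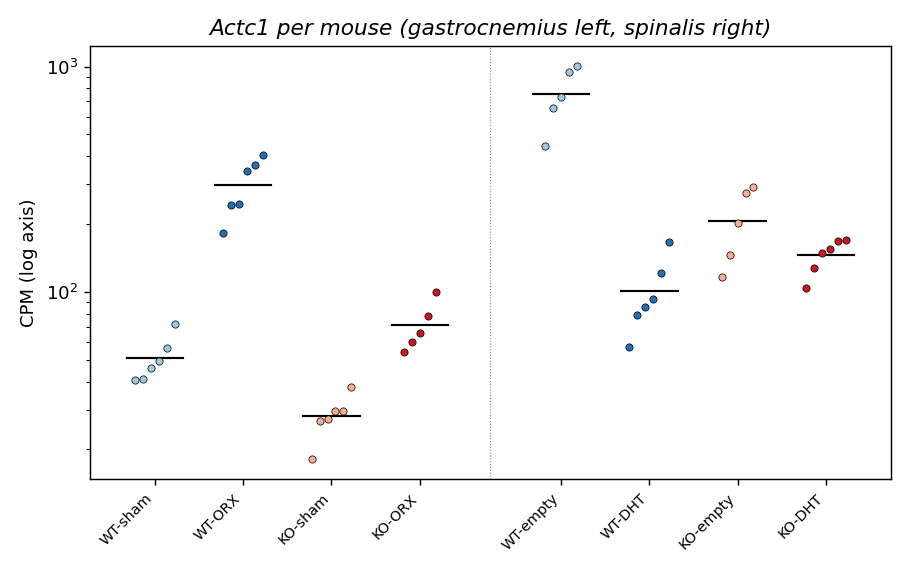
*Actc1* in each mouse as CPM on a log axis, for the 4 gastrocnemius groups (left of the dotted line) and the 4 spinalis groups (right). Points are mice and bars are group means. The WT-ORX mice (182 to 406 CPM) lie above the WT-sham mice (40.6 to 72.3 CPM), and the WT-empty mice (446 to 1010 CPM) lie above the WT-DHT mice (57 to 167 CPM), whereas KO-empty and KO-DHT mice overlap.

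In spinalis, the 5 WT-empty mice had 446, 653, 942, 731 and 1010 CPM of *Actc1*, the highest levels of the study. WT-DHT mice had 57, 89.4 and 167 CPM (lowest, median and highest). All WT-DHT mice lay below all WT-empty mice, and *Actc1* fell 7.54-fold with DHT (log2 fold change -2.91, SE 0.26, q = 7.3e-09). It was the only member of 9 called there, against 11.3% of all genes. The highest WT-DHT value, 167 CPM, came from the small library, replicate 5, and without it the fall stayed called.

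KO mice started lower and changed less. The 5 KO-empty mice had 203, 292, 276, 146 and 117 CPM, all below WT-empty (3.65-fold lower, log2 fold change -1.87, SE 0.27, q = 7e-05). KO-DHT mice had 104, 152 and 170 CPM, a range that overlaps KO-empty. The log2 fold change with DHT in KO was -0.51 (95% interval -1.02 to 0, q = 0.2), and 0 of 9 members were called in this contrast, where 4.62% of all genes were. By edgeR 1 member, *Csrp3*, had an unadjusted p under 0.05 in it, and DESeq2 and limma-voom called 0. With DHT, the KO and WT values overlapped (log2 fold change 0.54, 95% interval 0.05 to 1.03, q = 0.13).

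The difference between the genotypes in the DHT response was itself called for *Actc1*: the interaction was 2.41 on the log2 scale (SE 0.36, 95% interval 1.67 to 3.14, q = 0.00015), a 5.3-fold difference between the responses. It was the only member of 9 called for this interaction, against 3.24% of all genes. Under each alternative fit and without each mouse in turn it stayed called. The contrasts share groups: WT-empty mice enter the DHT response in WT, the genotype difference with empty implants and the interaction, so these values are not independent of each other.

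*Actc1* remained a small part of the actin transcripts at every level. As a share of the CPM per kb summed over *Acta1*, *Actc1* and *Acta2*, it made up 0.279% ± 0.0648 in WT-sham (SD, n = 6) and 1.57% ± 0.384 in WT-ORX (n = 6). In KO the shares were 0.199% ± 0.0445 with sham surgery (n = 6) and 0.55% ± 0.169 with ORX (n = 5). In spinalis it made up 2.47% ± 0.717 in the 5 WT-empty mice and 0.308% ± 0.112 after DHT in WT (n = 6). The KO spinalis had 0.881% ± 0.326 with empty implants (n = 5) and 0.635% ± 0.123 with DHT (n = 6). The WT-empty spinalis thus had the largest share and KO-sham gastrocnemius the smallest. The lowest share of *Acta1* in any mouse was 96.72%, in WT-empty.

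Some genes of immature, regenerating or denervated fibers moved with the same treatments as *Actc1*. Their summed level, which was not tested, was 40.6 to 47.1 CPM in WT-sham and 47.4 to 60.2 in WT-ORX, and 34.9 to 41.7 in KO-sham and 45.6 to 58 in KO-ORX (8 of 11 listed genes measured). In spinalis it was 68.4 to 85 CPM in WT-empty and 47.7 to 63.2 in WT-DHT, and 71.5 to 101 in KO-empty and 49.1 to 67.1 in KO-DHT (9 of 11 measured). *Myog*, a transcription factor of muscle differentiation that rises with denervation, rose with ORX in both genotypes (log2 fold change 0.8 in WT, q = 0.00033, and 0.71 in KO, q = 0.0026) and fell with DHT in WT (-1.06, q = 0.0025). *Ncam1*, an adhesion molecule of immature and denervated fibers, fell with DHT in WT (-0.84, q = 8.5e-06) and in KO (-1.07, q = 9.4e-07). With ORX, 2 of the 8 measured genes of this list rose in WT and 1 rose in KO, where 5.45% and 5.57% of all genes were called. With DHT, 3 of 9 fell in each genotype, where 11.3% of all genes were called in WT and 4.62% in KO. The list median with DHT was -0.66 in WT and -0.61 in KO, against -0.006 and -0.011 over all genes. *Actc1* itself was not called with DHT in KO. Between the genotypes, 0 of 8 were called with sham surgery, 0 of 8 with ORX and 0 of 9 with empty implants, where *Actc1* was lower in KO. The shares of all genes there were 5.3%, 3.8% and 4.25%, and the list medians -0.33, -0.02 and 0.2. Between KO-DHT and WT-DHT, 1 of 9 was higher and 1 lower in KO, against 11.6% of all genes, and the list median was 0.18. For the interaction with DHT, which was called for *Actc1*, 0 of 9 were called, against 3.24% of all genes. The part of such fibers in the *Actc1* values was not tested, and in whole muscle a change in the number of cells of a type and a change in RNA per cell cannot be told apart.

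*Acta1*, the skeletal α-actin, had a lower mean in KO than in WT in all 4 comparisons of genotype, was called in 3 of them, and was not called with either treatment. WT-sham mice had 16400, 17400 and 17700 CPM and KO-sham mice 12800, 13300 and 14500 CPM. No KO-sham mouse reached the lowest WT-sham mouse, and the level was 1.29-fold lower (log2 fold change -0.37, SE 0.056, q = 5.8e-05). After ORX, WT mice had 15300, 17200 and 20000 CPM. The 5 KO-ORX mice had 12500, 11500, 13200, 12900 and 11900 CPM. Again the genotypes did not overlap, with a 1.41-fold lower level in KO (log2 fold change -0.5, SE 0.059, q = 2.4e-06).

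In spinalis the genotype difference in *Acta1* had the same sign and a wider spread. The 5 WT-empty mice had 27400, 31500, 29700, 24100 and 28900 CPM and the 5 KO-empty mice 24400, 20700, 23700, 19500 and 22100 CPM. These groups overlapped by a single KO mouse, and the log2 fold change of -0.36 (SE 0.1, q = 0.029) was not called by edgeR. DESeq2 called it (q = 0.007), and the alternatives gave q-values of 0.007 to 0.041. With DHT, WT mice had 24300, 31200 and 35200 CPM and KO mice 18900, 21800 and 26100 CPM. The groups overlapped, but the difference was called (1.42-fold lower in KO, log2 fold change -0.51, SE 0.095, q = 0.00033). *Acta1* was the only 1 of 9 members called between the genotypes under DHT, against 11.6% of all genes. Between ORX and sham its log2 fold change was 0.02 in WT (95% interval -0.09 to 0.14) and -0.11 in KO (-0.23 to 0.01), and with DHT 0.13 in WT (-0.08 to 0.33) and -0.02 in KO (-0.23 to 0.18).

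*Xirp2*, which encodes an actin-binding protein of the myofibril also called myomaxin, went the other way and was higher in KO gastrocnemius. WT-sham mice had 4200, 4380 and 4800 CPM and KO-sham mice 5280, 5660 and 5860 CPM, without overlap (1.26-fold higher, log2 fold change 0.33, SE 0.044, q = 8.6e-06). WT-ORX mice had 3770, 3980 and 4220 CPM. The 5 KO-ORX mice had 5110, 5470, 5150, 5530 and 5030 CPM, all above every WT-ORX mouse (1.31-fold higher, log2 fold change 0.39, SE 0.046, q = 1.8e-06). ORX in WT gave a log2 fold change of -0.15 (SE 0.044) at q = 0.028, which was not called. DESeq2 called it (q = 0.0041), with q-values of 0.0041 to 0.17 over the alternatives.

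The spinalis values of *Xirp2* were more spread. WT-empty mice had 3530, 3110, 3240, 3250 and 2690 CPM and KO-empty mice 4380, 4400, 3850, 4290 and 2760 CPM. All KO-empty mice but replicate 5 were above every WT-empty mouse, and the log2 fold change of 0.31 (95% interval -0.01 to 0.64, q = 0.23) was not called. With DHT, WT mice had 1950, 3560 and 3810 CPM and KO mice 2700, 3410 and 4180 CPM, which overlapped (log2 fold change 0.12, 95% interval -0.17 to 0.42). In controls, the genotype difference in spinalis minus that in gastrocnemius was -0.03 on the log2 scale (95% interval -0.36 to 0.3), so the data give no called difference between the experiments.

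*Nrap*, the scaffold of myofibril assembly, was higher in KO on average in all 4 comparisons of genotype and was called in 1. The 5 WT-empty mice had 1530, 1730, 1580, 1460 and 1600 CPM and the 5 KO-empty mice 2360, 2170, 1940, 2020 and 2090 CPM. The groups did not overlap (1.34-fold higher, log2 fold change 0.42, SE 0.1, q = 0.0088). This call lies close to the threshold: it was lost in 15 of the 22 fits that each left out 1 spinalis library, with q-values of 0.005 to 0.028. In sham mice, WT had 1150, 1380 and 1670 CPM and KO 1370, 1780 and 2400 CPM, with overlap (log2 fold change 0.38, SE 0.1, q = 0.015). DESeq2 called that difference (q = 0.0029), and the alternatives gave 0.0029 to 0.034. The log2 fold changes in ORX mice (0.26, SE 0.11, q = 0.17) and in DHT mice (0.25, SE 0.092, q = 0.063) were not called.

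Between the genotypes, 3 of the 9 members were called in sham mice (*Xirp2* higher, *Acta1* and *Actc1* lower), against 5.3% of all genes, and the same 3 genes in ORX mice, against 3.8%. With empty implants 2 were called (*Nrap* higher, *Actc1* lower), against 4.25%. The sham and ORX comparisons use different mice but share 1 fit. The smaller KO-sham libraries stand beside the genotype values in sham mice, and their part in them was not tested. When the genotype effect in control mice was compared between spinalis and gastrocnemius, 0 of 9 members were called, against 1.65% of 16642 genes. *Actc1* was the 1 member with an unadjusted p under 0.05 by edgeR, and DESeq2 and limma-voom called 0. The largest difference was that of *Actc1* (-1.03 on the log2 scale, 95% interval -1.71 to -0.35, q = 0.094). No member other than *Actc1* was called for either interaction with treatment, and the 95% intervals of the others include 0.

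**Figure D2:**
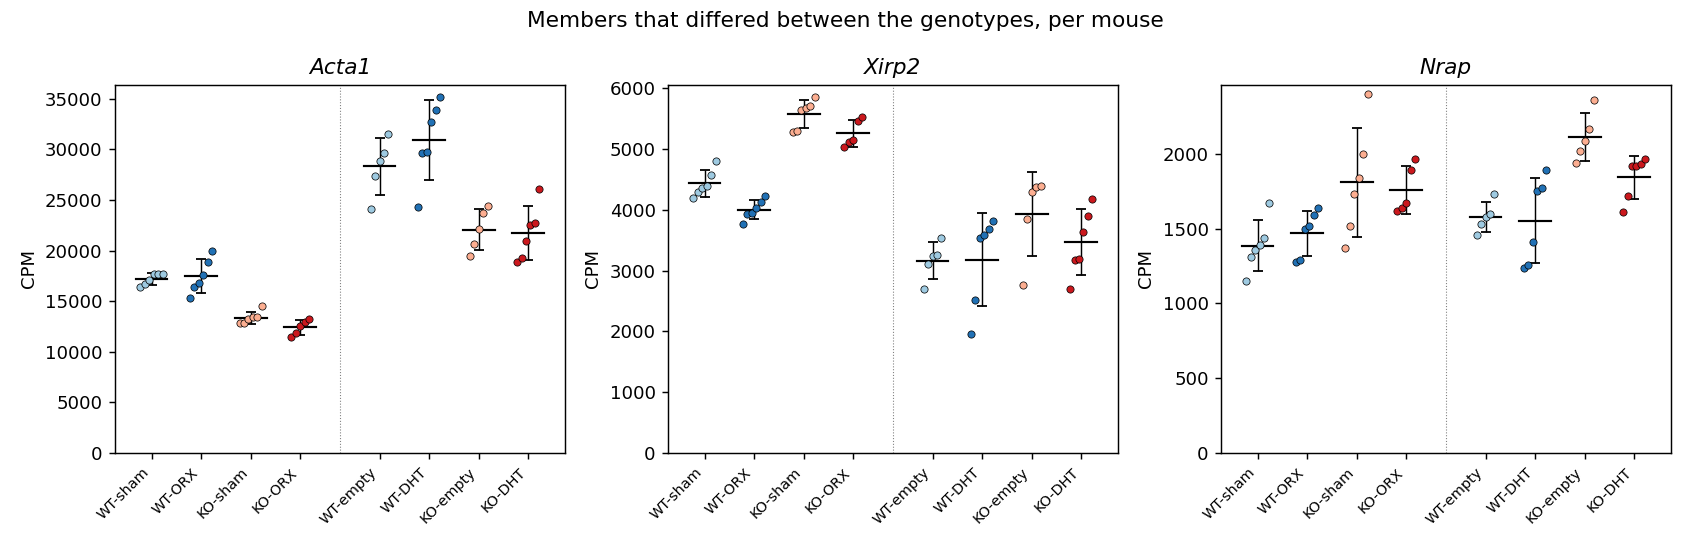
CPM of *Acta1*, *Xirp2* and *Nrap* in each mouse of the 8 groups, with the group mean and SD and an axis from 0. The dotted line separates gastrocnemius (left) from spinalis (right). *Acta1* is lower and *Xirp2* higher in every KO-sham and KO-ORX mouse than in every WT mouse of the same operation, and *Nrap* is higher in every KO-empty than in every WT-empty mouse.

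**Figure D3:**
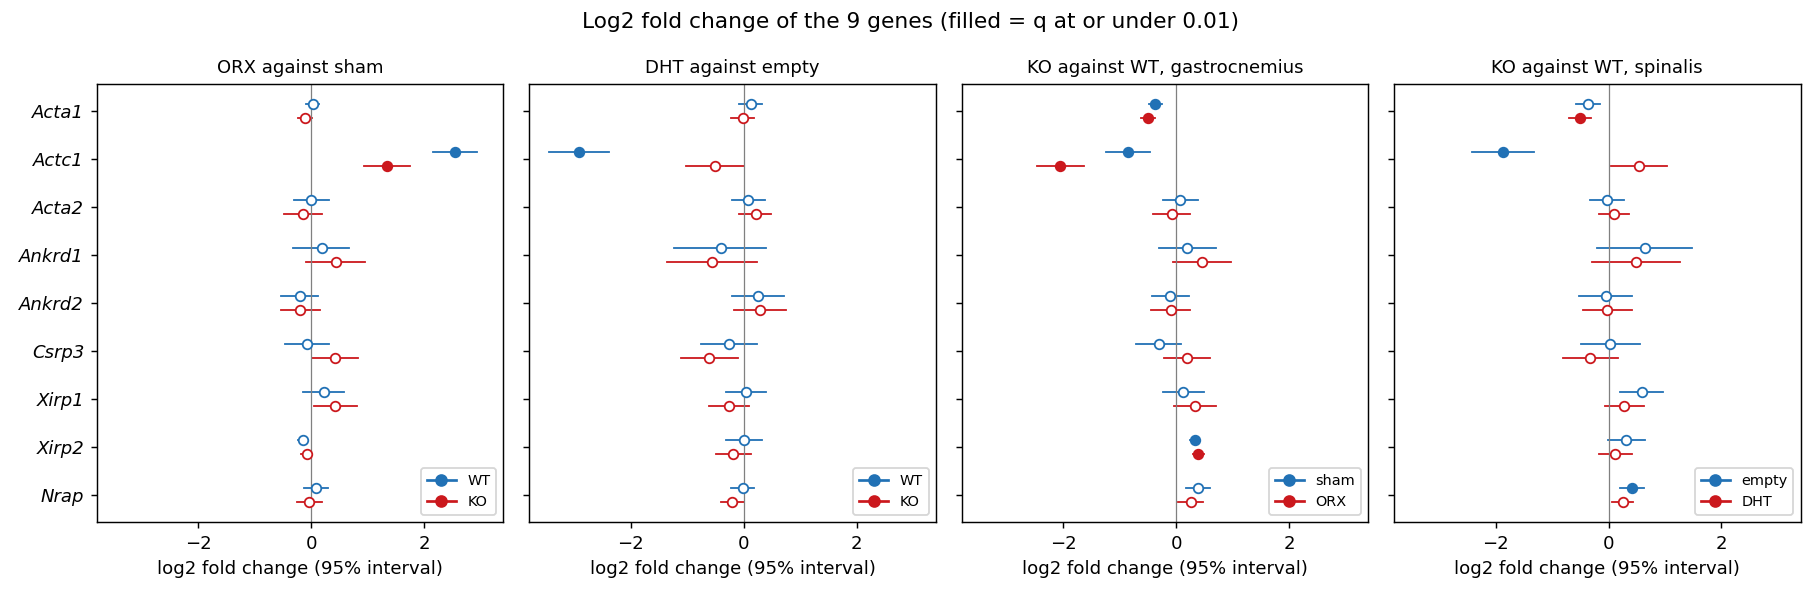
Log2 fold changes of the 9 genes in the 8 comparisons between pairs of groups, with 95% intervals. Filled points mark q at or under 0.01. *Actc1* spans from -2.91 (DHT in WT) to 2.55 (ORX in WT), and the other members lie between -0.61 and 0.64.

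The other 5 members, *Acta2*, *Ankrd1*, *Ankrd2*, *Csrp3* and *Xirp1*, were called in none of the 11 contrasts. An uncalled gene is not shown to be unchanged, and intervals are given below for some of the values. Over all 9 members the median log2 fold change was 0.02 with ORX in WT and -0.04 in KO, against 0.01 over all genes in both. With DHT it was 0.01 in WT and -0.2 in KO, against -0.01 over all genes in both. Between KO and WT it was 0.07 with sham surgery, 0.19 with ORX, 0.03 with empty implants and 0.12 with DHT, where the medians of all genes lay between -0.01 and 0.01.

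*Ankrd1*, the cardiac ankyrin repeat gene that responds to stretch in heart and muscle, was the least abundant member. It had 6.94 to 11.7 CPM in WT-sham, 5.21 to 14.3 in WT-ORX, 7.34 to 15.7 in KO-sham and 28, 11, 8.75, 12.2 and 12.2 CPM in the KO-ORX mice. The value of 28 CPM, in KO-ORX replicate 1, lay far above the next highest KO-ORX value of 12.2 CPM. In spinalis it had 6.47, 3.31, 2.89, 4.1 and 2.28 CPM in WT-empty and 6.52, 5.94, 3.01, 11 and 3.06 CPM in KO-empty, and with DHT 0.679 to 5.46 CPM in WT and 2.38 to 5.57 in KO. The lowest value rests on 20 counts, in WT-DHT replicate 5. All 4 genotype differences of *Ankrd1* had a positive sign, from 0.2 to 0.64 on the log2 scale, with q-values of 0.34 to 0.68. Single libraries weighed heavily on these values. The difference was 0.06 in place of 0.2 without KO-sham replicate 5, 0.08 in place of 0.46 without KO-ORX replicate 1, 0.29 in place of 0.64 without KO-empty replicate 4, and 0.31 in place of 0.49 without WT-DHT replicate 5. The interval was widest with empty implants (-0.2 to 1.48).

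*Ankrd2*, the related gene of slow and stretched muscle, had group medians between 54.3 CPM in KO-ORX and 81.7 in KO-DHT, and all groups overlapped within each experiment. Its log2 fold changes with ORX were -0.21 in WT (95% interval -0.54 to 0.12) and -0.2 in KO (-0.54 to 0.15). With DHT they were 0.26 in WT (-0.2 to 0.72) and 0.29 in KO (-0.17 to 0.74). The 4 genotype differences ran from -0.11 to -0.03.

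*Csrp3*, the muscle LIM protein of the Z-disc, had 71.1, 83.6 and 90.2 CPM in WT-sham and 48.8, 54.4 and 115 CPM in KO-sham, where a single KO mouse exceeded every WT mouse. After ORX it had 50.2 to 109 CPM in WT and 129, 84.8, 69.5, 87.2 and 71.4 CPM in KO. Its log2 fold changes with ORX were -0.08 in WT (95% interval -0.47 to 0.31) and 0.42 in KO (0.01 to 0.83, q = 0.19), both uncalled. Its response to DHT in KO was -0.61 on the log2 scale (95% interval -1.11 to -0.11, q = 0.11), from 171, 93.5, 113, 74.6 and 87.6 CPM in KO-empty to 63.7, 66 and 95.6 CPM in KO-DHT. The groups overlapped, and the difference was not called. In WT the log2 fold change with DHT was -0.26 (-0.76 to 0.24).

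*Xirp1*, the Xin gene of regenerating and stretched fibers, had 57.9, 60.8 and 85.6 CPM in WT-sham and 54.2, 71.4 and 98.1 CPM in WT-ORX. It had 48.6, 68.8 and 93.7 CPM in KO-sham and 140, 71.6, 71.9, 105 and 84.2 CPM in KO-ORX. Its log2 fold changes with ORX were 0.22 in WT (95% interval -0.14 to 0.58, q = 0.52) and 0.42 in KO (0.05 to 0.8, q = 0.15), both uncalled. In spinalis it had 109, 126, 120, 96.1 and 122 CPM in WT-empty and 262, 209, 160, 95.5 and 136 CPM in KO-empty. All KO-empty mice but replicate 4 lay above every WT-empty mouse (log2 fold change 0.59, 95% interval 0.21 to 0.96, q = 0.043), which was not called. Without KO-empty replicate 4 it was called (q = 0.0037), and over all left-out libraries q ran to 0.16. The other 3 genotype differences were 0.13, 0.33 and 0.28 on the log2 scale.

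*Acta2*, the actin of smooth muscle and pericytes, had the narrowest range of group means of these 5 genes in proportion to their level. Its group medians lay between 38.7 and 42.6 CPM in all 8 groups, and its log2 fold changes ran from -0.15 to 0.21 with q of at least 0.38. The summed level of 11 smooth muscle and pericyte markers was 457 to 569 CPM in WT-empty and 575 to 677 in WT-DHT, and 426 to 521 in KO-empty and 546 to 621 in KO-DHT. *Rgs5*, a pericyte gene, rose with DHT in WT (log2 fold change 0.45, q = 5.4e-05) and in KO (0.34, q = 0.0032), and *Myl9*, a smooth muscle myosin light chain, rose in WT (0.67, q = 0.00014). *Myh11*, the smooth muscle myosin, had 0.16 in WT and 0.23 in KO, both uncalled. In gastrocnemius the marker sums ran from 666 to 823 CPM and overlapped between all groups.

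**Figure D4:**
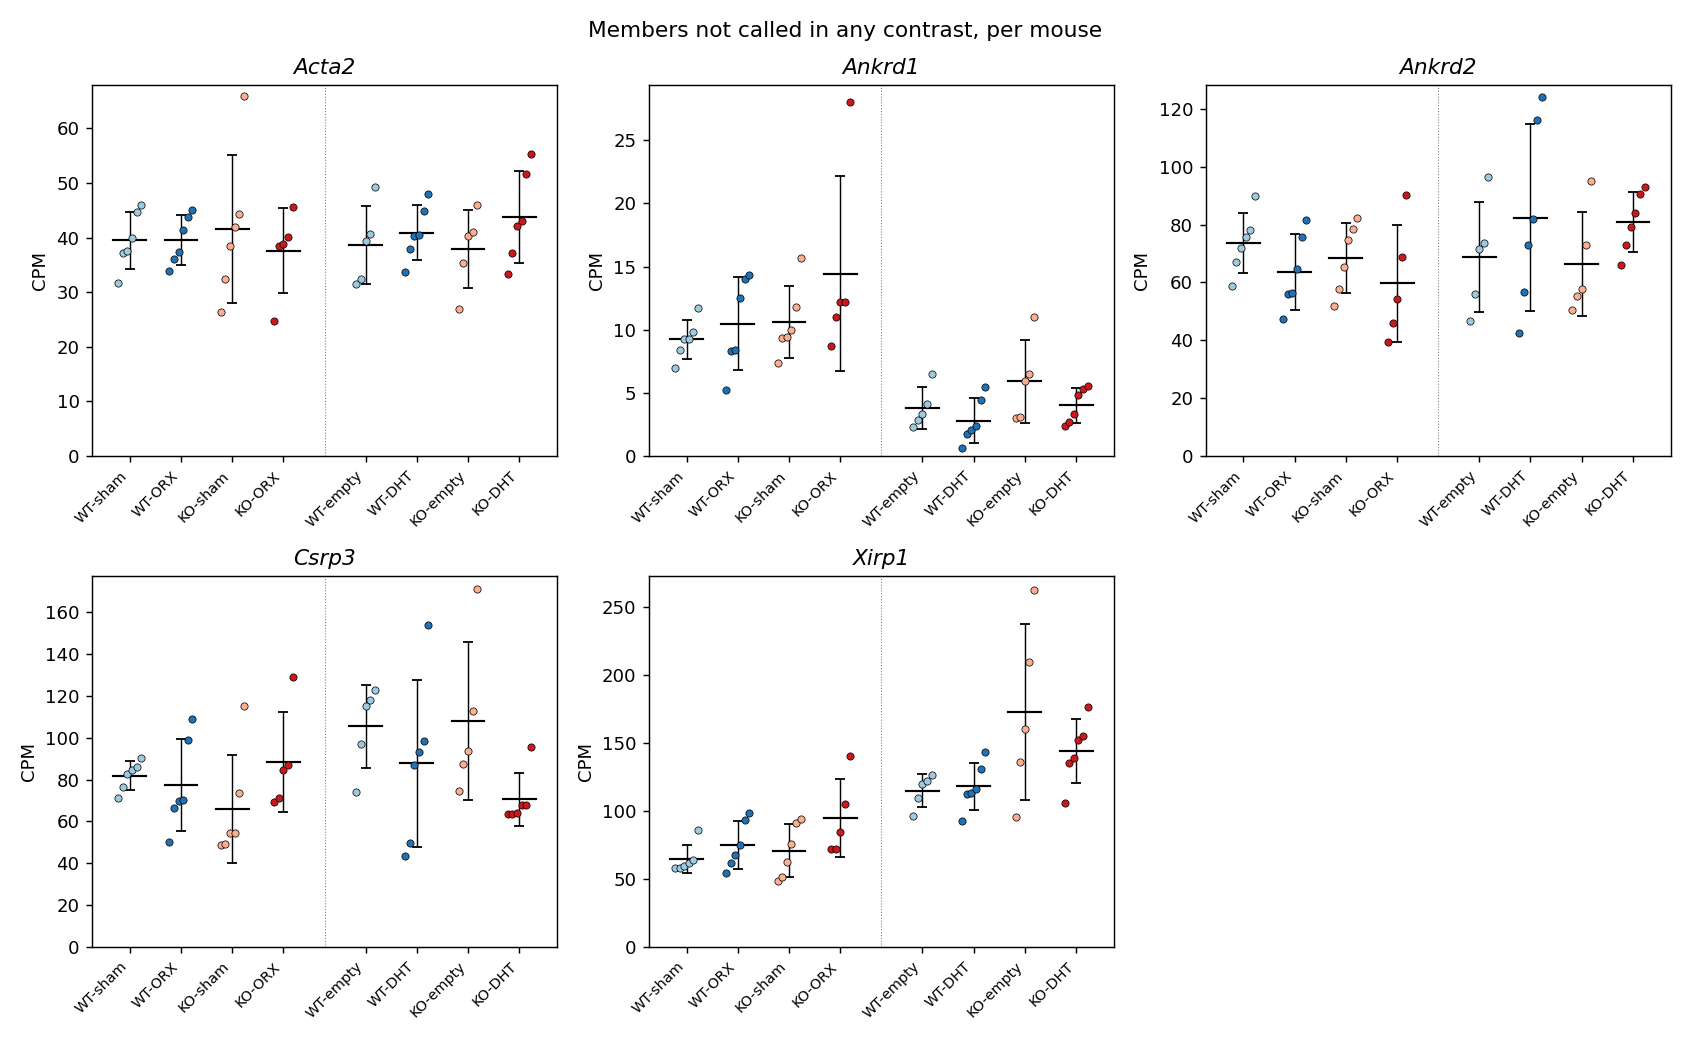
CPM in each mouse of the 5 members that were called in no contrast, with the group mean and SD and an axis from 0. Dotted lines separate gastrocnemius (left) from spinalis (right). KO-ORX replicate 1 is the highest KO-ORX mouse for *Ankrd1* (28 CPM), *Csrp3* (129 CPM) and *Xirp1* (140 CPM), and KO-empty values of *Xirp1* span 95.5 to 262 CPM.

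Within groups, *Ankrd2* and *Csrp3* varied together from mouse to mouse. After removal of the group means, Pearson's r of their log2 CPM was 0.72 over the 23 gastrocnemius libraries and 0.85 over the 22 spinalis libraries. For *Ankrd1* and *Csrp3* it was 0.67 and 0.39, and for *Ankrd2* and *Xirp1* 0.57 and 0.51. *Acta1* and *Nrap* had 0.51 in both experiments. KO-ORX replicate 1 was the highest of its group for *Ankrd1*, *Ankrd2*, *Csrp3* and *Xirp1*, and WT-DHT replicate 5 was the lowest of its group for the same 4 genes. These are descriptions over libraries that share a sequencing depth for all genes, and a single library weighs on each.

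Genes outside the list with the most similar patterns were sought among 11649 genes measured in both experiments, by the lower of the Pearson r over the 23 gastrocnemius and over the 22 spinalis libraries. For *Actc1* they were *Macrod2* (0.84), *Gpd2* (0.84) and *Wnt4* (0.83). For *Acta1* they were *Amotl1* (0.89), *Ybx3* (0.86) and *Gfer* (0.86). The nearest to *Nrap* were *Camk2b* (0.81), *Actn2* (0.79), the gene of α-actinin-2, and *Ldb3* (0.77), a Z-disc gene. *Xirp2* was nearest to *Atrx* (0.77), *Hook3* (0.75) and *Dmd* (0.72), the dystrophin gene. The nearest to *Acta2* were *Myh11* (0.65) and *Mylk* (0.64), which are smooth muscle genes. For *Xirp1* the highest value was 0.67, with *Igdcc4* and with *Flnc*, the filamin gene of muscle, and for *Ankrd1*, *Ankrd2* and *Csrp3* it did not exceed 0.61. These values are over libraries that include the differences between groups.

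Among the regulators of actin genes, *Srf* itself was lower in KO muscle in all 4 genotype comparisons. Its log2 fold change was -0.46 with sham surgery (q = 2e-04), -0.55 with ORX (q = 5e-05), -0.49 with empty implants (q = 0.0044) and -0.42 with DHT (q = 0.0027). Neither interaction was called for *Srf* (-0.09 with ORX, q = 0.83, and 0.07 with DHT, q = 0.88). Of the 15 SRF, MRTF and YAP-TEAD genes, 4 were lower and 1 higher in KO-sham than in WT-sham (median log2 fold change -0.3, against -0.007 over all genes, of which 5.3% were called), and 4 were lower and 1 higher in KO-DHT than in WT-DHT (median -0.09, against 0.006, with 11.6% of all genes called). With ORX 1 was lower (median -0.12, against 0.009, with 3.8% called). With empty implants 2 were lower, while the median was positive (0.13, against 0.013, with 4.25% called).

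*Tead4*, a TEAD factor that binds the MCAT element, changed opposite to *Actc1* in WT muscle. It fell with ORX in WT (log2 fold change -1.06, SE 0.13, q = 3e-06) and rose with DHT in WT (2.02, SE 0.18, q = 4.7e-09). In KO mice neither change was called (-0.35, q = 0.14, and 0.3, q = 0.29). The interaction with DHT was called (-1.73, SE 0.24, q = 8.8e-05), and that with ORX was not (0.71, SE 0.2, q = 0.17). *Tead4* was also lower in KO-sham than in WT-sham (-1.1, q = 3.7e-06) and in KO-DHT than in WT-DHT (-1.4, q = 5.9e-07). *Ccn1*, a YAP-TEAD target, was lower in the same comparisons (-0.99, q = 0.00088, and -0.69, q = 0.0026). Between KO-ORX and WT-ORX neither gene was called, as *Srf* was the only gene of the list called there. With empty implants neither difference was called and both were positive (*Tead4* 0.33, q = 0.28, and *Ccn1* 0.13, q = 0.71). The genotype effect in controls, spinalis minus gastrocnemius, was called for *Tead4* (1.42, q = 5e-04) and *Ccn1* (1.1, q = 0.025).

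Genes that assemble thin filaments or set their length moved in single cases. *Lmod3*, a leiomodin that nucleates actin in skeletal muscle, fell with ORX in both genotypes (log2 fold change -0.43, q = 3.1e-06 in WT and 1.4e-05 in KO) and rose with DHT in WT (0.67, q = 6.5e-06), with a called interaction (-0.54, q = 0.016). *Abra*, which activates SRF through actin, rose with ORX in WT (0.55, q = 8e-04) and in KO (0.52, q = 0.0025). *Klhl40*, a protein that stabilizes *Lmod3* and nebulin, was higher in KO with sham surgery (0.31, q = 0.0021), with ORX (0.34, q = 0.0018) and with DHT (0.78, q = 1.1e-05). With empty implants its difference was not called (0.29, q = 0.13). *Tmod4*, which caps thin filaments, rose with DHT in WT (0.47, q = 2.9e-05) and was lower in KO with ORX (-0.32, q = 0.00047) and DHT (-0.35, q = 0.00064). Of the 14 genes of this list, 1 rose and 1 fell with ORX in each genotype, where 5.45% of all genes were called in WT and 5.57% in KO. The median log2 fold change of the list was -0.03 in both, against 0.01 over all genes. With DHT 2 of the 14 rose in WT (11.3% of all genes called) and 1 in KO (4.62%), and 1 was called for the interaction (3.24%). Between the genotypes, 3 were higher and 0 lower in KO with sham surgery (5.3%), and 1 higher and 1 lower with ORX (3.8%). With empty implants 2 were higher and 0 lower (4.25%), and with DHT 1 higher and 2 lower (11.6%).

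Among 18 titin and stretch-sensing genes, *Obsl1* and *Smpx* moved in opposite directions. *Obsl1*, a relative of obscurin, rose with ORX in WT (log2 fold change 0.8, q = 7.7e-07) and in KO (0.73, q = 1.1e-05) and fell with DHT in WT (-0.88, q = 3.4e-08) and in KO (-0.35, q = 0.0094), with a called interaction (0.53, q = 0.011). *Smpx*, the small muscle protein linked to stretch, fell with ORX (-0.48 in WT, q = 1.5e-05, and -0.33 in KO, q = 0.0028) and rose with DHT (0.85 in WT, q = 3.1e-10, and 0.47 in KO, q = 1.5e-05), also with a called interaction (-0.38, q = 0.014). *Ankrd23*, the relative of *Ankrd1* and *Ankrd2*, was higher in KO with sham surgery (0.88, q = 1.9e-05), with ORX (0.67, q = 0.00085) and with DHT (0.7, q = 8.9e-07). Its genotype effect in controls, spinalis minus gastrocnemius, was called (-0.59, q = 0.047). Of the 18 genes, 2 rose and 3 fell with ORX in WT (5.45% of all genes called), and 1 rose and 4 fell in KO (5.57%). With DHT, 4 rose and 1 fell in WT (11.3% of all genes called), and 1 rose and 1 fell in KO (4.62%). The median log2 fold change of the list was -0.1 and -0.15 with ORX, in WT and KO, and 0.05 and 0.01 with DHT. Between the genotypes, 3 of the 18 were higher and 2 lower in KO with sham surgery (5.3% of all genes called). With ORX 2 were higher and 2 lower (3.8%), with empty implants 2 higher and 0 lower (4.25%), and with DHT 4 higher and 1 lower (11.6%).

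The other actin genes listed were the cytoplasmic *Actb* and *Actg1* and the smooth muscle *Actg2*, which was in the gastrocnemius table only. *Actg1* was lower in KO-ORX than in WT-ORX (log2 fold change -0.4, SE 0.087, q = 0.0035), and no other call was made in any contrast. *Actb* had -0.19 (q = 0.062) with sham surgery and -0.2 (q = 0.095) with ORX between the genotypes.

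Markers of other cells were counted for the same contrasts. Fast and slow fiber markers had 1 of 13 lower with ORX in WT and 3 lower in KO, among them *Myh1*, a fast myosin (log2 fold change -0.61 in both genotypes). Of all genes, 5.45% were called with ORX in WT and 5.57% in KO. The list median with ORX was positive, 0.17 in WT and 0.07 in KO, against 0.013 and 0.014 over all genes. With DHT, 1 of the 13 was lower in WT and 1 higher in KO, where 11.3% and 4.62% of all genes were called. The list median with DHT was -0.54 in WT and -0.93 in KO, against -0.006 and -0.011 over all genes. The list mixes slow and fast markers, so its median describes neither kind alone. *Myh7*, the slow myosin, had -1.32 with DHT in WT (q = 0.092) and -1.94 in KO (q = 0.022) and was called in no contrast. The lists of 8 fibroblast, 5 adipocyte, 5 immune, 4 endothelial, 4 Schwann and 5 blood cell markers gave 0 to 2 calls each in any contrast. The share of all genes called ran from 0.0228% to 11.6% over the contrasts. With DHT, 2 of the 4 endothelial markers rose in WT and 1 in KO, where 11.3% and 4.62% of all genes were called. *Tie1*, an endothelial receptor, rose with DHT in WT (0.45, q = 0.00054) and in KO (0.4, q = 0.0041), and the endothelial sum was 123 to 168 CPM in WT-empty against 170 to 215 in WT-DHT, and 142 to 188 in KO-empty against 156 to 221 in KO-DHT, which overlap. *Cd3e*, a T cell gene, was higher in KO gastrocnemius (1.28 with sham surgery, q = 0.00019). It was the only 1 of the 5 immune markers called with sham surgery, against 5.3% of all genes. The list median between the genotypes was -0.16 with sham surgery and -0.17 with ORX. The immune sum was 93 to 124 CPM in WT-sham and 73.3 to 116 in KO-sham, which overlap. The part of these cells in the members' values was not tested.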

How the data were processed

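Total RNA of gastrocnemius (ORX) and spinalis (DHT) was made into stranded libraries, and reads were counted per gene by the authors. Per the labels, the processing notes name STAR 2.7.1b, SAMtools 1.9, Picard 2.20.2, featureCounts (Subread 2.0.0) and GRCm39. The deposited values are these raw counts, without normalization. Of 46 samples, 45 were used, since 1 KO-ORX label (replicate 6) matched no column. DHT columns were matched by group only, and their mice are numbered here in column order.

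Counts were analysed with edgeR 4.0.16 in R 4.3.3 (TMM, a mean for each group, quasi-likelihood F tests). The filter of 0.5 CPM in at least 2 libraries removed 0 genes. Log2 CPM used a prior count of 2. Whether replicates are separate litters or cages is not given in the sources used here. The members and gene lists were chosen with earlier results of these data known. All 9 members are named, with at most 4 genes per list by smallest p and the 3 genes of most similar pattern per member. The code was tested on simulated data. The alternatives were DESeq2 1.42.0, limma-voom (limma 3.58.1), library-size scaling, RLE factors, other filters, only the groups compared, a q of 0.05, a replicate block (ORX) and leaving out each library.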

Additional observations from a re-analysis of the deposited data

Results flagged for a closer look

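In 5 of the 72 combinations of member and group, the highest or lowest mouse stood apart from the rest of its group by Dixon's criterion, which chance flags in about 1 of 20. *Acta2* had 24.7 CPM in KO-ORX replicate 3, where the others had 38.4 to 45.7 CPM. *Ankrd1* had 28 CPM in KO-ORX replicate 1, where the others had 8.75 to 12.2 CPM. *Xirp1* had 85.6 CPM in WT-sham replicate 2, where the others had 57.9 to 63.9 CPM. *Csrp3* had 95.6 CPM in KO-DHT replicate 4, where the others had 63.7 to 67.9 CPM. *Xirp2* had 2760 CPM in KO-empty replicate 5, where the others had 3850 to 4400 CPM.

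The response of *Actc1* to DHT differed between the genotypes (interaction 2.41 on the log2 scale, SE 0.36, q = 0.00015 by edgeR).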

How the results depend on the processing

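Across all alternatives, 0 of the called differences of single members changed sign. Counts of members called that differed were 2 for ORX in WT by DESeq2 and at a q of 0.05 (with *Xirp2*), 1 for the interaction with ORX by DESeq2 (*Actc1*), and 4 between the genotypes in sham mice by DESeq2 and at a q of 0.05 (with *Nrap*). With empty implants between the genotypes it was 3 by DESeq2 (with *Acta1*), 1 with RLE factors (without *Nrap*) and 4 at a q of 0.05 (with *Acta1* and *Xirp1*). Leaving out each library gave 2 to 4 members between the genotypes in sham mice, 1 to 2 with empty implants, 0 to 1 for the interaction with ORX, and 0 to 1 for the genotype effect in controls between the experiments, where *Actc1* was called without KO-empty replicate 2 (q = 0.043). Whether the replicate numbers pair the ORX mice was not settled. Of 33 same-numbered pairs, 6 had a correlation over 0.1, and 7 of 23 libraries matched their own number best. The median correlation was 0.007 for same-numbered pairs and -0.009 for other pairs of groups. No chance level was worked out for these counts, so they cannot exclude a shared litter or batch. With the replicate block, 4 members were called between the genotypes in sham mice (with *Nrap*, q = 0.0075), and the other counts of members were as without it. The DHT columns carry numbered codes that the labels do not explain, and no code recurs between groups, so no block could be fitted there. The codes with the highest numbers all belong to KO groups, and whether the codes mark an order or a batch is not given.

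Values near 0 changed sign, all uncalled. With library-size scaling, which moved the median of all genes in the ORX contrast of KO mice to 0.121, they were, on the log2 scale, 0.002 (*Acta1*), 0.023 (*Xirp2*) and 0.07 (*Nrap*) for ORX in KO, -0.004 (*Acta2*), -0.017 (*Xirp1*) and -0.07 (*Xirp2*) for DHT in WT, 0.008 (*Acta2*) with empty implants and 0.042 (*Ankrd2*) with DHT between the genotypes, and 0.078 (*Acta1*) and 0.054 (*Xirp2*) for the genotype effect between the experiments. *Acta2* with ORX in WT had -0.002 by DESeq2 and with RLE factors, and -0.009 with the replicate block, and *Ankrd2* had an interaction with ORX of -0.026 by limma-voom and -0.055 with the replicate block. By limma-voom, *Xirp2* had -0.03 for DHT in WT, *Csrp3* -0.009 with empty implants, *Ankrd2* 0.049 with DHT between the genotypes and *Ankrd1* 0.004 for the interaction with DHT. *Xirp2* for DHT in WT had -0.001 both with at least 10 counts in every library and with only the groups compared.

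Without single libraries the uncalled log2 fold changes ran from -0.019 to 0.059 (*Acta1*), -0.053 to 0.05 (*Acta2*), and -0.204 to 0.017 (*Csrp3*) for ORX in WT. They ran from -0.248 to 0.03 (*Acta2*) and -0.112 to 0.055 (*Nrap*) for ORX in KO, from -0.105 to 0.174 (*Acta2*) between the genotypes with sham surgery, and from -0.156 to 0.044 (*Acta2*) and -0.287 to 0.026 (*Ankrd2*) between the genotypes with ORX. For the interaction with ORX they ran from -0.251 to 0.028 (*Acta2*), -0.124 to 0.411 (*Ankrd1*) and -0.181 to 0.133 (*Ankrd2*). In spinalis they ran from -0.022 to 0.099 (*Xirp1*), -0.056 to 0.113 (*Xirp2*) and -0.087 to 0.033 (*Nrap*) for DHT in WT, from -0.08 to 0.018 (*Acta1*) for DHT in KO, and from -0.105 to 0.076 (*Acta2*), -0.219 to 0.103 (*Ankrd2*) and -0.197 to 0.14 (*Csrp3*) between the genotypes with empty implants. Between the genotypes with DHT *Ankrd2* ran from -0.156 to 0.128. For the interaction with DHT the values ran from -0.415 to 0.201 (*Ankrd1*) and -0.127 to 0.193 (*Ankrd2*), and for the genotype effect between the experiments from -0.066 to 0.037 (*Acta1*), -0.212 to 0.066 (*Acta2*), -0.127 to 0.193 (*Ankrd2*), -0.086 to 0.072 (*Xirp2*) and -0.046 to 0.12 (*Nrap*). The cause of these changes was not tested, and depth limits *Ankrd1* most, with 20 counts in its lowest library.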
